A study of Mus musculus with 12 samples.

Results

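Gene expression in fibroblasts without telomerase was compared with that in wild-type fibroblasts across both knockout lines of the study, which used all 12 cultures measured. The comparison set the 6 cultures labelled knockout, 3 mTERT KO and 3 mTR KO, against the 6 labelled wild type, 3 mTERT WT and 3 mTR WT, with the line (mTERT or mTR) as a covariate. It asked which genes differed in the same direction when either component of the enzyme was missing. All cultures were mouse embryonic fibroblasts from male C57BL/6J embryos aged E12.5-14.5, untreated, grown in medium with fetal bovine serum and harvested at passage 5. The mTERT KO and mTR KO embryos lacked the reverse transcriptase and the telomerase RNA, respectively, and were of the first generation (G1). Knockout and wild-type embryos of a set were littermates, and the labels give no details of the deleted alleles. Embryonic fibroblast cultures are mixed populations, and in their total RNA fewer cells of a type and less RNA per cell cannot be told apart.

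Telomerase adds repeats to chromosome ends by copying a template within its RNA, encoded by Terc (mTR), with the reverse transcriptase encoded by Tert (mTERT). Loss of either component abolishes the activity. Mice start with long telomeres, which erode over successive generations without the enzyme, so the first generation is commonly used to look at effects of the missing components before telomeres become short. Some studies have proposed roles of the reverse transcriptase apart from telomere synthesis.

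Levels are log2 signals of Affymetrix Mouse Gene 1.0 ST arrays, with a single array for each culture. Differences are log2 values, knockout minus wild type, ± the standard error of the limma fit, with 6 cultures on each side for both lines together and 3 on each side within a line. The 14 fibroblast markers examined all lay above background, which was set at the level that 95% of odorant receptor probe sets stayed under (5.00). Macrophage markers were also present: all 22 lay above background, and their mean level ran from 6.65 in mTR WT 1 to 9.36 in mTR KO 1. Of the defining genes of other cell types, 5 of 16 endothelial, 8 of 17 epithelial and 1 of 9 erythroid markers lay above background. So did 16 of 18 smooth muscle and myofibroblast, 15 of 19 adipocyte lineage, 11 of 19 neural and glial and 10 of 21 skeletal muscle genes. Array profiles correlated at 0.984 to 0.997.

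The targeted genes were examined first, since they check the labels. Tert read 4.99, 4.83 and 4.75 in mTERT KO cultures 1 to 3 and 5.72, 5.74 and 5.51 in their wild types. The mTR KO cultures read 5.80, 5.69 and 5.80, and the mTR WT cultures 5.79, 5.70 and 5.66. The mTERT KO cultures thus lay below all others, and the mTR groups overlapped. Pooled over both lines the difference was -0.37 ± 0.13, the average of -0.79 ± 0.08 in the mTERT line and 0.05 ± 0.08 in the mTR line, and it did not pass the test (limma adjusted p = 0.981). Terc read between 4.50 and 4.86 in the knockouts and between 4.65 and 4.94 in the wild types, all under the mean background level, so its probe set could not check the mTR labels. Its difference was -0.17 ± 0.10 in the mTR line and -0.05 ± 0.10 in the mTERT line.

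No gene passed the test for a difference between knockout and wild type over both lines. Of 28853 probe sets, 0 (0%) reached a Benjamini-Hochberg adjusted p under 5% in limma, and the smallest adjusted p was 0.981. At an unadjusted p under 0.05 there were 1189 probe sets (4.12%), of which 489 (1.69%) were higher and 700 (2.43%) lower in the knockouts. Leaving out mTERT KO 3 raised the 1189 to 2019. The median standard error of the difference was 0.07, and 26 probe sets were higher and 103 lower by at least 0.5. Only Alx1 and Stmn2 differed by at least 1, both lower, and 0 probe sets were higher by that much. The genotype accounted for 7.78% of the variance summed over probe sets and the line for 11.2%, where 9.09% each would correspond to their single degree of freedom. Another 6.69% went with the difference of genotype effects between lines, and 74.3% lay within groups.

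The lines shared directions about as often as they opposed each other. Knockout differences had the same sign in both lines for 15235 probe sets (52.8%), higher in both for 7746 (26.8%) and lower in both for 7489 (26.0%). The sign was opposite for 13618 (47.2%). Across probe sets, which are not independent, the differences of the lines correlated at 0.08. An unadjusted p under 0.05 in both lines was reached by 33 probe sets (0.114%) in the same direction, 11 higher (0.0381%) and 22 lower (0.0762%), and by 32 (0.111%) in opposite directions. Taking mTERT cultures of equal number as pairs raised the first of these counts to 73 and the second to 42. Leaving out mTERT KO 1 lowered the first to 18, and leaving out mTERT WT 1 raised it to 52. The second was 47 without mTERT KO 1, 21 without mTERT KO 3 and 19 without mTR KO 2. The groups did not overlap in 5.97% of probe sets in the mTERT line and 11.4% in the mTR line. Those without overlap in either line numbered 114 (0.395%) in the same direction and 115 (0.399%) in opposite directions.

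**Figure D1:**
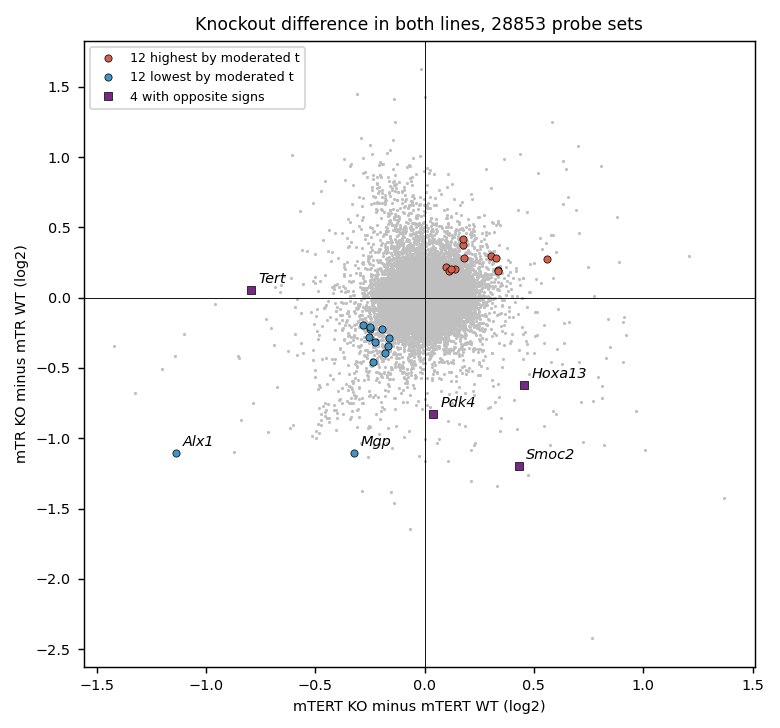
Difference of each of 28853 probe sets (grey) in the mTERT line (horizontal axis, log2) and the mTR line (vertical axis, log2), with the 12 highest and 12 lowest genes of the same sign in red and blue and 4 genes of opposite sign in purple. The cloud is close to round (correlation 0.08), and Alx1 lies far out in the quadrant lower in both lines.

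The difference between the lines was tested as well. At an adjusted p under 5%, 0 probe sets (0%) differed in their knockout effect between lines in limma, and 965 (3.34%) had an unadjusted p under 0.05. The smallest adjusted p was 0.404, a value that Tert had but that the adjustment can give to more than 1 probe set. With the numbered mTERT pairs as a block the smallest was 0.0790, again the value of Tert. Among genes above background with opposite signs in the lines, the next smallest p were those of Smoc2, Pdk4 and Hoxa13. Smoc2, a secreted calcium-binding matrix protein, read 7.07 to 7.35 in mTERT WT, 7.46 to 7.82 in mTERT KO, 7.28 to 7.73 in mTR KO and 8.26 to 8.97 in mTR WT (differences 0.43 and -1.20, adjusted p of their difference 0.429). Pdk4, an inhibitory kinase of pyruvate dehydrogenase, differed by 0.04 and -0.83, and the distal limb factor Hoxa13 by 0.46 and -0.62. In these 3 genes every mTR WT culture lay above every mTERT culture of either genotype, as it did in 1000 of all probe sets (3.47%).

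Among genes lower in both lines, the most separated was Ndufs6, an accessory subunit of respiratory complex I. It read 6.64, 6.64 and 6.46 in mTERT KO and 6.61, 6.61 and 6.64 in mTR KO, against 6.84, 6.85 and 6.89 in mTERT WT and 6.88, 6.77 and 6.79 in mTR WT. All 6 knockouts lay below all 6 wild types, which held for 25 probe sets of the array (0.0866%). The difference was -0.24 ± 0.05 (-0.28 in the mTERT line, -0.19 in the mTR line; unadjusted p = 0.000219, adjusted 0.981), and it ranged from -0.25 to -0.20 when any 1 culture was left out. Ndufs6 lies on chromosome 13 with Tert, with 4 protein-coding genes between them in the RefSeq annotation of GRCm38.p6. Over both lines those genes differed by -0.13 (Mrpl36), -0.04 (Clptm1l), 0.04 (Lpcat1) and 0.07 (Slc6a3, under background at a mean of 4.48). In the mTERT line the values were -0.01, -0.03, 0.05 and 0.05 in the same order. Mrpl36 differed by -0.24 in the mTR line. Whether the position of Ndufs6 near Tert plays a part in its difference was not tested.

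Emilin1 and Ddr1 had the same full separation. Emilin1, a glycoprotein of elastic fibres that restrains TGF-beta processing, read 8.28 to 8.55 in the knockouts (median 8.45) and 8.60 to 8.82 in the wild types (median 8.67). Its difference was -0.26 ± 0.06, -0.17 in the mTERT line and -0.34 in the mTR line. Ddr1, a receptor tyrosine kinase for collagen, read 7.60 to 7.86 in the knockouts (median 7.75) and 7.89 to 8.06 in the wild types (median 7.94), a difference of -0.23 ± 0.06. Both genes kept a negative difference with any 1 culture left out (-0.29 to -0.23 and -0.25 to -0.20).

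Alx1, a homeobox factor of craniofacial mesenchyme, had the largest difference of any probe set, at -1.12 ± 0.29. It read 5.93, 5.33 and 5.38 in mTERT KO, 7.36, 6.34 and 6.35 in mTERT WT, 6.07, 5.50 and 5.51 in mTR KO and 6.77, 5.86 and 7.77 in mTR WT. The mTERT groups did not overlap, while mTR WT 2 lay below mTR KO 1. The difference was -1.14 ± 0.42 and -1.11 ± 0.42 in the mTERT and mTR lines (unadjusted p for both lines together 0.00196, adjusted 0.981). It was -0.91 without mTR WT 3 and -1.33 without mTR WT 2. Stmn2, a neuronal microtubule regulator, read 5.12 to 6.80 in the knockouts (median 6.19) and 5.69 to 7.85 in the wild types (median 7.21), a difference of -1.0 ± 0.37 in which the mTR groups overlapped.

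Mgp, a vitamin K-dependent inhibitor of soft tissue calcification, read 8.77 to 9.46 in the knockouts (median 9.15) and 9.11 to 10.48 in the wild types (median 9.84). Its difference was -0.71 ± 0.17, with -1.10 ± 0.20 in the mTR line, where the groups did not overlap, and -0.32 ± 0.20 in the mTERT line, where they did. Mgp, Scube3, Lrrk1, Prdm16 and Ahi1 were 5 of the 12 lowest genes by moderated t in which every mTR WT culture lay above every mTERT culture. Scube3, a secreted glycoprotein, differed by -0.29, the kinase Lrrk1 by -0.35, the zinc finger factor Prdm16, known from brown fat, by -0.27 and the ciliary protein Ahi1 by -0.21. Scube3 lay close to background (mean 5.23), with 2 knockouts under it. The other members of the 12 were the lipid transporter Abca2 (-0.24), the mitochondrial protein Tmem186 (-0.23) and the prohormone-processing carboxypeptidase Cpe (-0.27). In 9 of the 12 the groups did not overlap in either line, and in 11 the knockout was the lower member of all 3 numbered mTERT pairs. This set was chosen for its low values, so these counts describe it and test nothing.

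The genes higher in both lines differed less. The 12 with the highest moderated t ranged from 0.15 to 0.42, with adjusted p of 0.981 throughout. In 5 of them all 6 knockouts lay above all 6 wild types, which held for 19 probe sets of the array (0.0659%): the uncharacterised 1700066M21Rik (0.27 ± 0.06), Mettl5 (0.17 ± 0.05), Morc3 (0.16 ± 0.04), Psg23 (0.26 ± 0.07) and Ccdc112 (0.15 ± 0.04). Mettl5, a methyltransferase of ribosomal RNA, read 6.19 to 6.42 in the knockouts and 5.99 to 6.14 in the wild types. Morc3, a chromatin-associated ATPase, read 8.82 to 8.97 in the knockouts and 8.65 to 8.81 in the wild types. Psg23 passed the background level only through the knockouts: it read 4.69 to 5.02 in the wild types, 5 of 6 under background, and 5.07 to 5.40 in the knockouts, so its difference sets a signal just above background against one at it. 1700066M21Rik read 4.82 to 5.15 in the wild types, 2 of them under background, and 5.17 to 5.38 in the knockouts. The steps between the groups were small also in Mettl5 and Morc3, and the highest wild type of Morc3 almost touched its lowest knockout. Spon2, a secreted matrix protein with roles in innate immunity, differed most within the set, by 0.42 ± 0.12 (0.56 and 0.28). It read 5.93 to 6.25 in mTERT KO and 5.44 to 5.63 in mTERT WT without overlap, and 5.06 to 5.78 in mTR KO and 4.91 to 5.32 in mTR WT with overlap. The remaining genes were Dock11, an activator of Cdc42 (0.30), Nrip2 (0.30), Zfp820 (0.30), Zfp617 (0.27), Lysmd3 (0.23) and the anchoring protein Akap8 (0.16).

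**Figure D2:**
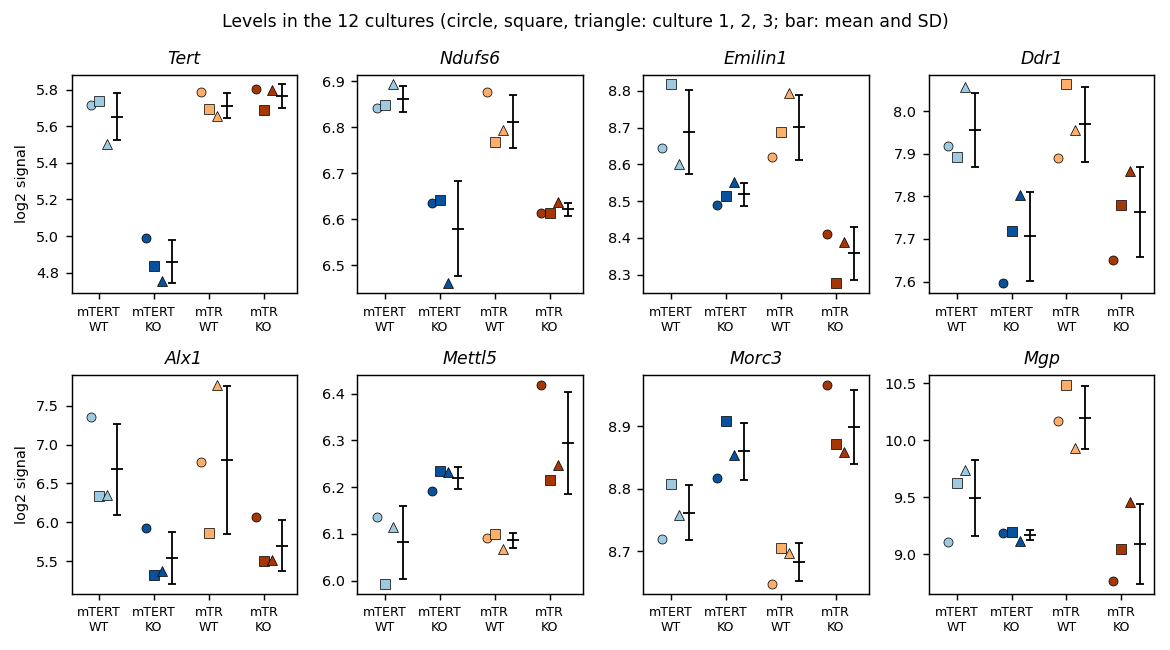
Log2 signal of 8 genes in the 12 cultures, by group (circle, square and triangle for cultures 1, 2 and 3; bars give the mean and SD of 3 cultures; the vertical axes differ and do not start at 0). Ndufs6, Emilin1 and Ddr1 lie lower and Mettl5 and Morc3 higher in every knockout than in any wild type, Tert is low only in mTERT KO, and the mTR groups of Alx1 overlap.

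A full separation of knockouts from wild types, which held for 44 probe sets of the array (0.152%), was seen in 16 genes above background. Besides those above they were Tmed10, Pard6g, Coq4, Traf2, Spen, Necap1 and Lars2, all lower, and 1700086O06Rik, higher; these 8 were named after their values were seen. Their differences ran from -0.24 (Necap1) to -0.12 (Tmed10) and to 0.13 (1700086O06Rik). Coq4 takes part in ubiquinone synthesis and Lars2 charges mitochondrial tRNA with leucine. Genes without overlap in either line were also ranked by the smaller of their 2 line differences. The 6 highest and 6 lowest of that ranking added Gcnt4, a glycosyltransferase (-0.39 ± 0.12), and Sipa1l2 (-0.25 ± 0.07) among the lower ones, and Mios (0.14 ± 0.04) and Ccdc74a (0.14 ± 0.04) among the higher ones. Ccdc74a lay close to background (mean 5.09), with 2 wild types under it.

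Hmcn1, which encodes hemicentin-1, a very large protein of the extracellular matrix, stood out by the number of its probe sets and was examined after its values were seen. The array holds 77 of them, where the next gene has 33, and 76 were lower in the knockouts of both lines. The median over the 77 was -0.53, with -0.33 in the mTERT line and -0.75 in the mTR line. Their mean level was 5.68, 6.58 and 6.41 in mTERT KO and 6.56, 6.48 and 6.60 in mTERT WT, and 7.12, 5.86 and 6.45 in mTR KO and 7.02, 7.01 and 7.60 in mTR WT. The groups overlapped in both lines, and mTERT KO 1 and mTR KO 2 were the lowest. Without mTERT KO 1 the number lower in both lines was 52, and the median ran from -0.66 to -0.38 with any 1 culture left out, the latter without mTR KO 2. Hmcn1 supplied 54 of the 700 probe sets with an unadjusted p under 0.05 and a lower signal, and 50 of the 103 lower by at least 0.5. Counts of probe sets are therefore not counts of genes.

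Gene lists were described by their counts and medians. Over all probe sets the median difference was 0.00 in either line, and 26.8% were higher and 26.0% lower in both. For each list, the number of measured members higher or lower in both lines is read against those shares, and no member of any list passed the adjusted test. Most of these counts moved when 1 culture was left out. Leaving out 1 culture moved the count higher or the count lower in both lines by over 1.5 times in 39 of the 42 lists, all but those of smooth muscle, of TGF-beta and BMP signalling and of the unfolded protein response. The sign of the median turned in 22 lists. Of 397 list members with a difference of at least 0.1 in size, 317 moved by over 1.5 times without 1 culture. These fits took no pairs, so leaving out 1 mTERT culture left its partner unmatched, and differences between pairs entered the result. Some lists whose counts moved kept 1 direction of their mean level in every mTERT pair. It was higher in the knockouts for DNA damage and for cholesterol and fatty acid synthesis, and lower for respiratory subunits.

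Telomere maintenance genes differed little beyond Tert itself. Of 16 genes of telomerase and its assembly, 4 were higher and 4 lower in both lines, with a median of -0.00. Dkc1, the pseudouridine synthase of the telomerase particle, differed by 0.10, its partners Gar1 by 0.09 and Nop10 by -0.07, and the trafficking factor Wrap53 by -0.03. Of 16 shelterin and telomere-binding genes (Tert is listed here too), 7 were higher and 1 lower in both lines, with a median of 0.04. Without mTERT WT 3 the number higher in both was 4 and the median -0.01, and without mTR KO 2 the number was 10. The telomere-binding protein Terf1 differed by 0.16, the end-binding proteins Pot1a by 0.09 and Pot1b by 0.05, and Terf2 by 0.02. Rif1, which acts in replication timing and repair, had the highest value of the list at 0.34 ± 0.19, with 7.29 to 8.42 in the knockouts and 7.14 to 7.89 in the wild types, so that the groups overlapped widely. Without mTR KO 1 it was 0.20, and Terf1 0.07.

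DNA damage genes lay mostly higher in the knockouts, by small amounts. Of 33 genes, 20 were higher and 2 lower in both lines, with a median of 0.05. Blm, the helicase of Bloom syndrome, had 0.26 ± 0.10 (unadjusted p = 0.0252), reading 6.49 to 7.17 in the knockouts and 6.42 to 6.73 in the wild types. Atr, the kinase that responds to replication stress, had 0.12 ± 0.05 (unadjusted p = 0.0335), and its partner kinase Atm 0.14. Fancd2, of the Fanconi anaemia pathway, had 0.24 ± 0.11. Without mTR KO 1, Blm had 0.16 and Fancd2 0.16. The count of genes higher in both lines dropped to 10 without mTERT KO 1 and was 23 without mTERT KO 3. Targets of p53 showed no common direction: of 25 genes, 6 were higher and 8 lower in both lines, with a median of 0.01. Fas, a death receptor, had the smallest p among them (-0.38 ± 0.16, unadjusted p = 0.0309), with Phlda3 at -0.16 and Gadd45a at 0.17. Of 23 CDK inhibitors and senescence genes, 7 were higher and 7 lower in both lines, and Igfbp7, a secreted factor linked to senescence, had -0.17 ± 0.08.

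Proliferation genes lay higher in the knockouts of both lines, a pattern that rested on 1 culture. Of 26 mitotic genes, 20 were higher and 0 lower in both lines, with a median of 0.12 (0.06 in the mTERT line, 0.15 in the mTR line). An unadjusted p under 0.05 was reached by 0 members, against 4.12% of all probe sets. Their mean level was 8.04, 7.71 and 7.63 in mTERT KO, 7.93, 7.67 and 7.56 in mTERT WT, 8.20, 7.63 and 7.31 in mTR KO and 7.71, 7.38 and 7.52 in mTR WT. The knockout was the higher member of each mTERT pair, while in the mTR line KO 1 lay above and KO 3 below all wild types. Without mTR KO 1 the median was 0.00 and 6 of the 26 were higher in both lines. Cenpf, a kinetochore protein, differed by 0.34 ± 0.23, Bub1, a checkpoint kinase, by 0.27 ± 0.18 and Cenpa, the centromeric histone, by 0.17 ± 0.10. Without mTR KO 1 these were 0.18, 0.12 and 0.09.

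Of 27 DNA replication and E2F target genes, 17 were higher and 1 lower in both lines, with a median of 0.07, and 6 were higher in both without mTR KO 1. The replication factors Cdc45 and Mcm10 differed by 0.15 ± 0.07 and 0.21 ± 0.10. Of 32 Polycomb and chromatin regulators 13 were higher and 8 lower in both lines. Ezh2 and Suz12, subunits of a Polycomb repressive complex, differed by 0.18 ± 0.08 (unadjusted p = 0.0333) and 0.12 ± 0.05, and Cbx7, of another, by -0.15, at a level close to background.

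Promoters of the mitotic genes are shown because 20 of these genes lay higher in both lines and many mitotic promoters are known to carry an element called the cell cycle genes homology region. Its letters TTTGAA were searched on both strands of RefSeq promoters (GRCm38.p6, 250 bases before to 50 after the start site). They occurred in 16 of the 22 mitotic genes with a promoter in the table (72.7%) and in 20.2% of all 27025 genes. A match is a description of the letters and not of a bound site. Cdk1, the mitotic kinase, and Top2a, a topoisomerase, have all of their matches before the start, and the 250 bases up to it are printed on the gene's strand (chr10:69352913-69353162, minus, and chr11:99024190-99024439, minus), with the matches in capitals.
Cdk1: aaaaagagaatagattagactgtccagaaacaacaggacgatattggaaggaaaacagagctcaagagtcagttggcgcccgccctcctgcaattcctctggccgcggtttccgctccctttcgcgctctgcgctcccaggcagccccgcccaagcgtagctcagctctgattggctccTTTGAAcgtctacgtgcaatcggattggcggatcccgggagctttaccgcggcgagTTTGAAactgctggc
Top2a: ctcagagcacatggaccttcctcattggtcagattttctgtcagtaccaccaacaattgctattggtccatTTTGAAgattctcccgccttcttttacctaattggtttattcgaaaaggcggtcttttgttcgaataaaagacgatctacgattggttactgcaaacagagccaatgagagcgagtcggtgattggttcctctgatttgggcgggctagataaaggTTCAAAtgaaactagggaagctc
Cdk1 differed by 0.05 and Top2a by 0.16 over both lines, and Cdk1 had opposite signs in them.

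Smooth muscle and myofibroblast genes were lower in the knockouts of both lines without exception among the 18 measured, with a median of -0.24 (-0.13 in the mTERT line, -0.32 in the mTR line). Many of these genes encode parts of the contractile apparatus of smooth muscle, and only some of them are typical of myofibroblasts. Myh11, the smooth muscle myosin heavy chain, read 8.80, 8.16 and 9.29 in mTERT KO, 8.90, 8.97 and 9.88 in mTERT WT, 7.65, 8.68 and 9.95 in mTR KO and 9.92, 9.50 and 9.86 in mTR WT. Its groups overlapped in both lines, since mTR KO 3 lay above every mTR wild type. The difference was -0.75 ± 0.34 (unadjusted p = 0.0474, adjusted 0.981). Lmod1, a nucleator of actin filaments in smooth muscle, differed by -0.34 ± 0.14, the intermediate filament desmin (Des) by -0.75, calponin (Cnn1) by -0.31, transgelin (Tagln) by -0.18 and smooth muscle actin (Acta2) by -0.08. Without mTR KO 1, Myh11 had -0.47, Des -0.28 and Cnn1 -0.16. Of the 18, 3 had an unadjusted p under 0.05: Myh11, Lmod1 and Casq2, the last under background. Over the array 2.43% of probe sets were lower at that threshold.

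The smooth muscle genes followed single cultures as well as genotype. Their mean level was 9.04, 8.85 and 9.32 in mTERT KO and 9.14, 9.13 and 9.45 in mTERT WT, lower in the knockout of each pair. In the mTR line it was 8.59, 9.04 and 9.46 in the knockouts and 9.45, 9.31 and 9.41 in the wild types, so that mTR KO 3 matched the wild types. The median ranged from -0.30 to -0.14 when any 1 culture was left out, the latter without mTR KO 1, and the number lower in both lines from 14, without mTERT KO 2, to 18. Macrophage markers had their highest mean level (9.36) in mTR KO 1, the culture with the lowest smooth muscle level, and their part in the result was not tested.

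The CArG box, the element bound by serum response factor, was searched in the same promoters on both strands. It occurred in 2 of the 14 smooth muscle genes with a promoter in the table, Myl9 and Ldb3, and in 1.81% of all genes. The 250 bases before the start of Myl9, the regulatory myosin light chain (chr2:156775214-156775463, plus, GRCm38.p6), are printed as the example with the box in capitals, whose first base lies 161 bases before the start. Many genes of this kind carry such boxes outside the window searched, so a missing match says nothing of them.
Myl9: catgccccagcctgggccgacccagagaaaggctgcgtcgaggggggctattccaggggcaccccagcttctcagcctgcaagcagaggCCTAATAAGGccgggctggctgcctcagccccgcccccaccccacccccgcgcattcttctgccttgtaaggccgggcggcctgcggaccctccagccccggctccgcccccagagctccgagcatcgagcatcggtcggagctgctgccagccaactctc
Myl9 differed by -0.23 over both lines (-0.15 and -0.30) and Ldb3, a Z-disc protein, by -0.27 (-0.16 and -0.38).

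**Figure D3:**
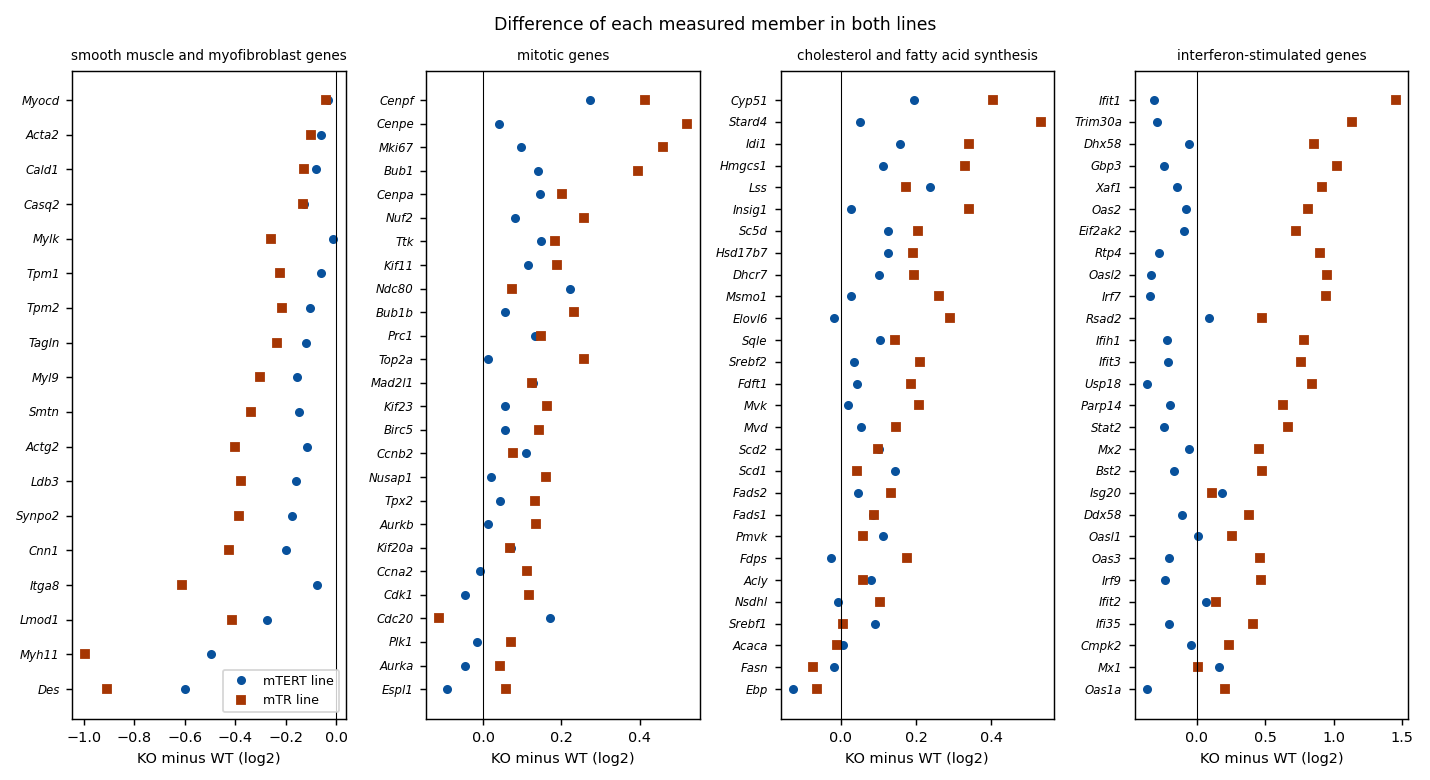
Difference of each measured member of 4 gene lists in the mTERT line (circles) and the mTR line (squares), in log2, ordered by the value over both lines. All 18 smooth muscle genes lie left of 0 in both lines, 20 of 26 mitotic and 22 of 28 lipid synthesis genes lie right of it in both, and 23 of 28 interferon genes have opposite signs with all 12 cultures (2 without mTERT WT 2).

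Genes of TGF-beta and BMP signalling were mostly lower. Of 39 genes, 24 were lower and 6 higher in both lines, with a median of -0.05 (-0.07 and -0.08), and 19 to 25 were lower in both when any 1 culture was left out. The largest difference of the list in size was a rise, of 0.68. The receptor Tgfbr3 was higher by at least 0.5 over both lines, with the same sign in each. Among ligands, Bmp4 differed by -0.58, Tgfb2 by -0.47, the activin subunit Inhba by -0.37 and Inhbb by 0.37. Bmp4 ranged from -0.85 without mTERT KO 2 to -0.29 without mTR KO 2, and Inhba was -0.20 without mTR KO 1. Among binding proteins and inhibitors, the latent TGF-beta binding protein Ltbp3 had -0.24 ± 0.07 (unadjusted p = 0.00477), the BMP antagonists Chrdl1 -0.40 and Grem1 -0.27, and the inhibitory Smad6 and Smad7 -0.22 and -0.18. Chrdl1 was -0.23 without mTR WT 3, Grem1 -0.18 without mTR KO 1 and Smad6 -0.14 without mTR WT 1. Among targets, Id3, an inhibitor of differentiation induced by BMP, had -0.29 ± 0.08 (unadjusted p = 0.00224). It read 7.67 to 8.30 in the knockouts and 7.91 to 8.60 in the wild types, without overlap in the mTR line and with overlap in the mTERT line.

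Of 41 matrix glycoproteins and proteoglycans, 18 were lower and 11 higher in both lines, with a median of -0.05. At an unadjusted p under 0.05, 5 of the 41 were lower, against 2.43% of all probe sets, and 2 higher, against 1.69%. The lower ones were Mgp, Emilin1, Ltbp3, Ltbp2 (-0.36 ± 0.10) and the elastic fibre protein Fbln5 (-0.27). The higher ones were Spon2 and the proteoglycan Vcan (0.41). Mgp, Emilin1 and Spon2 had already been picked above by their moderated t in these data. Ltbp2, which binds elastic fibres, read 10.31 to 10.91 in the knockouts and 10.66 to 11.24 in the wild types. Of 25 collagen genes 8 were higher and 8 lower in both lines, and Col11a1, a cartilage-type collagen, had -0.41 ± 0.13. Of 24 matrix proteases and inhibitors 6 were higher and 8 lower in both, with the gelatinase Mmp9 at -0.63. Of 24 cartilage, bone and tendon genes 3 were higher and 10 lower in both, with the tendon factor Mkx at -0.31.

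Growth factor genes of the FGF, PDGF and IGF families had the second lowest median, -0.09, with 9 of 35 higher and 14 lower in both lines. Igfbp2, an IGF carrier, differed by -0.56 ± 0.23, Fgf10, a mesenchymal ligand of limb and lung buds, by -0.50 ± 0.20 and Fgfrl1, a receptor without kinase, by -0.21. Fgf10 went mainly with the mTERT line (-0.96 against -0.04). Of 23 Wnt and beta-catenin targets 5 were higher and 5 lower in both lines, and Lgr5, a receptor for R-spondins, had the largest value, 0.87, which was 0.57 without mTERT KO 1.

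Patterning genes had large values without a common direction. Of 43 limb, face and trunk factors 14 were higher and 14 lower in both lines. Beside Alx1, Tbx3 had -0.24 ± 0.09, Shox2 0.42 and Zic1 0.57 ± 0.19 (unadjusted p = 0.00969). Zic1, a factor of the dorsal neural tube and somites, read 6.01, 6.37 and 6.53 in mTERT KO against 5.52, 5.21 and 5.51 in mTERT WT, while the mTR groups overlapped. Of 20 anterior Hox genes 4 were higher and 9 lower in both lines, with Hoxa5 at -0.65 ± 0.27 and Hoxa6 at -0.29. Of 17 distal Hox genes 2 were higher and 5 lower in both and 10 had opposite signs, with medians of 0.24 in the mTERT line and -0.26 in the mTR line.

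Cholesterol and fatty acid synthesis genes lay mostly higher. Of 28 genes, 22 were higher and 2 lower in both lines, with a median of 0.11 (0.07 and 0.17). Sc5d, a sterol desaturase, had the smallest p (0.17 ± 0.07, unadjusted p = 0.0460), reading 8.99 to 9.59 in the knockouts and 8.75 to 9.49 in the wild types. The lanosterol demethylase Cyp51 had 0.30 ± 0.15, the isomerase Idi1 0.25 and Hmgcs1, which makes HMG-CoA, 0.22 ± 0.11. The count of genes higher in both lines was 11 without mTERT KO 1 and 25 without mTERT WT 1, and the median was 0.05 without mTR KO 1. Sterol synthesis and mitotic genes were highest in the same cultures, mTERT KO 1, mTERT WT 1 and mTR KO 1, with mean levels of 8.73, 8.66 and 8.59 for the former.

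Respiratory subunits lay mostly lower by small amounts. Of 30 genes 18 were lower and 1 higher in both lines, with a median of -0.04, and 9 were lower in both without mTERT KO 2. After Ndufs6, the smallest p were those of the subunits Ndufa2 (-0.12) and Ndufa4 (-0.10). Of 23 mitochondrial regulators and pyruvate dehydrogenase genes 4 were higher and 5 lower in both lines, and Cpt1a, which imports fatty acids into mitochondria, had -0.29 ± 0.09 (unadjusted p = 0.00790). Of 27 NRF2 targets and antioxidant enzymes 3 were higher and 7 lower in both, and the reductase Msrb2 had -0.19 ± 0.06.

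Interferon and macrophage genes mostly had opposite signs in the lines with all 12 cultures, and no gene passed the test of the difference between lines. The numbers with opposite signs changed when single mTERT cultures were left out. Of 28 interferon-stimulated genes 5 were higher and 0 lower in both lines and 23 had opposite signs, with medians of -0.20 in the mTERT line and 0.65 in the mTR line. Without mTERT WT 2, 26 of the 28 were higher in both lines and the mTERT median was 0.24. Without mTERT KO 3 the number was 25 and the median 0.17, and without mTERT KO 2 it was 2, with a median of -0.61. Each such omission left 1 mTERT culture without its pair partner, so the changes include differences between pairs. Of 22 macrophage markers 21 had opposite signs, with medians of -0.15 and 0.72. Their mean level in the mTERT line was 7.34, 9.03 and 8.85 in the knockouts and 7.60, 8.86 and 9.22 in the wild types, so that the knockout was lower in pairs 1 and 3 and higher in pair 2. Without mTERT KO 1, and likewise without mTERT WT 3, 21 of the 22 were higher in both lines, with mTERT medians of 0.39 and 0.20. The pooled median of the macrophage markers was 0.28, and it was -0.06 without mTR WT 1, the culture with their lowest mean level (6.65). Antigen presentation genes had opposite signs in 12 of 17, with medians of -0.04 and 0.17, and in 7 of 17 without mTERT KO 3 or without mTERT WT 2. NF-kB members and targets had opposite signs in 13 of 30, a share below the 47.2% of all probe sets. The number of them higher in both lines was 10, and it was 20 without mTERT WT 2 and 1 without mTERT KO 2.

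**Figure D4:**
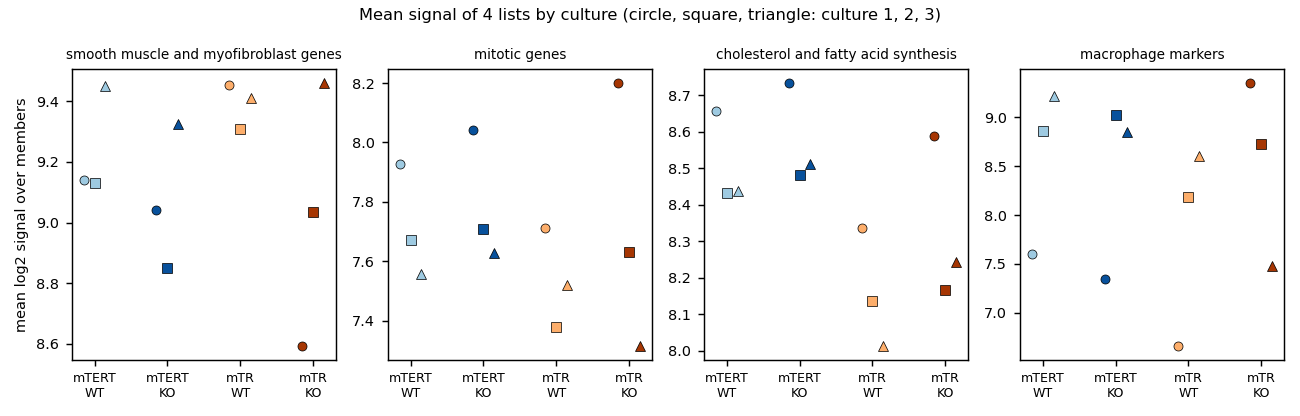
Mean log2 signal over the members of 4 gene lists in each culture (circle, square and triangle for cultures 1, 2 and 3; the vertical axes differ and do not start at 0). Smooth muscle genes are lowest and mitotic genes highest in mTR KO 1, and macrophage markers range from 6.65 in mTR WT 1 to 9.36 in mTR KO 1.

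The remaining lists are given by their counts higher and lower in both lines. Myc targets and ribosome biogenesis had 11 of 29 higher and 8 lower in both lines, ribosomal proteins 8 and 3 of 20, unfolded protein response and ATF4 targets 8 and 9 of 25, immediate early genes 9 and 6 of 27, imprinted genes 5 and 3 of 21 and the aryl hydrocarbon receptor pathway 3 and 1 of 10. Adipocyte lineage genes had 11 of 19 higher and 2 lower, skeletal muscle genes 3 and 9 of 21 and neural and glial markers 3 and 4 of 19. Fibroblast markers had 6 higher and 3 lower of 14, endothelial markers 3 and 5 of 16, epithelial markers 2 and 9 of 17 and erythroid markers 1 and 1 of 9. Neighbours of Tert had 4 and 5 of 16 and neighbours of Terc 4 and 2 of 10. Single cultures moved the larger of these counts. The adipocyte genes higher in both were 5 without mTR KO 1, and the immediate early genes higher in both were 2 without mTERT KO 2 and 14 without mTERT KO 3. The epithelial markers lower in both were 5 without mTERT WT 3, the skeletal muscle genes lower in both were 5 without the same culture, and the neural and glial markers lower in both were 11 without mTR WT 3. Of ribosomal proteins 3 were higher in both without mTERT WT 3.

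**Figure D5:**
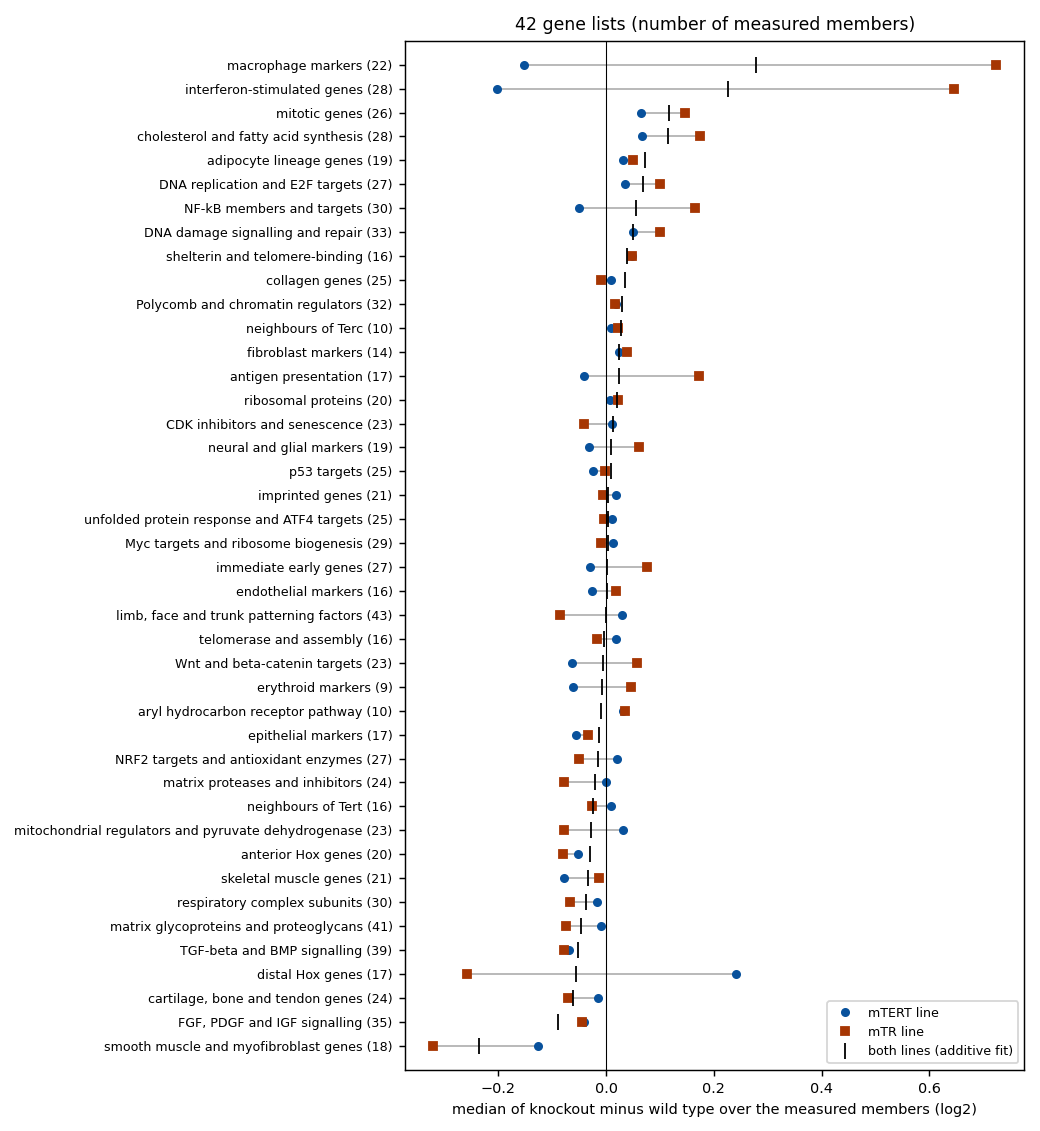
Median difference between knockout and wild type (log2) over the measured members of 42 gene lists, in the mTERT line (circles), the mTR line (squares) and both lines together (bars). Smooth muscle genes have the lowest median over both lines (-0.24), and macrophage markers and interferon genes have the widest gap between lines.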

How the data were processed

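Gene expression was measured on Affymetrix Mouse Gene 1.0 ST arrays in 12 cultures, and groups followed the labels. The deposited log2 signals of 28853 probe sets were used as they stood; GCOS 1.4, Affymetrix Expression Console and PLIER appear, without stated roles, per the submitters' processing notes. How arrays were normalized was not given in the sources used here. Quantiles differed by at most 0.08 between arrays.

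The fit was limma 3.58.1 in R 4.3.3, with line and genotype as additive terms, empirical Bayes moderation and Benjamini-Hochberg adjustment over all probe sets at 5%. Differences within lines and between lines came from a fit of 4 group means. Standard errors and p of single genes took no pairs into account, except where a block is named. The test was checked on simulated data. The design text calls knockout and wild type of a set littermates. In the mTERT line deviations from group means correlated at 0.674 to 0.790 for equal numbers and at -0.525 to -0.184 for others, over the 14426 brighter probe sets, so those numbers were taken as pairs. In the mTR line equal numbers gave -0.377 to 0.289, so no pairs were taken there. The labels do not say whether cultures of equal number share a litter.

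Annotation gave 1 gene to 21789 probe sets, several to 1621 and none to 5443. For each gene the brightest probe set, by its mean over all arrays, was used. Of 1055 entries in 42 lists 987 were matched, 976 by symbol and 11 by gene ID or synonym in RefSeq (GRCm38.p6). The comparison, its members and lists were chosen with earlier results of these data known. Genes named were Tert and Terc, the 12 highest and 12 lowest by moderated t among genes above background with 1 sign in both lines, the 6 per direction without overlap in either line that ranked first by the smaller of the 2 line differences, the 4 with opposite signs and the smallest p of the difference, and up to 3 members per list by p; other members are named as examples of their list. Figures were drawn with matplotlib in Python.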

Additional observations from a re-analysis of the deposited data

Results flagged for a closer look

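Among 148 named genes, single cultures were checked against the other 5 of their genotype by Dixon's criterion at 95%, which compares the gap to the nearest value with the whole range. Of 296 groups 14 held a culture beyond it, and chance gives about 1 in 20 groups.

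Among genes that separated the genotypes, Mettl5 read 6.42 in mTR KO 1, above the nearest knockout at 6.25, Psg23 read 5.40 in mTERT KO 1 (nearest 5.13), and Ndufs6 read 6.46 in mTERT KO 3, below the nearest at 6.61. Lrrk1 read 8.30 in mTR KO 3 (nearest 7.96), which is the knockout closest to the wild types. The widest gap was that of Pax3, a factor of neural crest and muscle precursors, with 7.83 in mTR KO 1 and at most 5.36 in the other knockouts. The same culture stood apart for Eng (8.02, nearest 7.23) and Chrdl1 (5.51, nearest 5.20). Erbb3, a neuregulin receptor of neural crest and glia, read 6.62 in mTR WT 2 (nearest 5.27), and Ezh2 read 8.21 in the same culture (nearest 8.42). Gar1 read 8.14 in mTR WT 3 (nearest 8.32) and Cbx7 4.98 in mTR WT 1 (nearest 5.11). Hoxc10 read 5.23 in mTR KO 2 (nearest 4.77), Hoxa4 5.50 in mTR KO 3 (nearest 5.13) and Fgf10 5.54 in mTERT KO 1 (nearest 5.32).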

How the results depend on the processing

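The count of probe sets past 5% was 0 under every alternative run for the comparison over both lines and for the difference between lines: blocks, quantile normalization, median centring, filters, trended variance, array weights and the omission of each culture. The number with an unadjusted p under 0.05 over both lines was 1901 with a replicate block of 6 pairs, 642 among probe sets above background, and 837 to 2019 with 1 culture left out. The number with an unadjusted p under 0.05 in both lines and the same direction was 113 with a replicate block of 6 pairs, 73 with the block in the mTERT line only, 73 with a random block and 18 above background, and 18 to 52 with 1 culture left out. For opposite directions it was 66 with the random block, 16 above background and 19 to 47 with 1 culture left out. The share with the same sign ran from 49.7 to 56.2% with 1 culture left out. The pairing by block changed no call at 5%. Signs of single named genes turned in 5 cases, all on leaving out 1 culture: Tfrc ranged from -0.0517 to 0.0730 (-0.01 without mTR WT 1), Hoxa13 from -0.20 to 0.0346 (0.02 without mTR KO 3) and Nqo1 from -0.12 to 0.00792. The number of cultures, with a median standard error of 0.07 for the difference over both lines, limits the precision. The p-values set a difference against the spread among these cultures. Where no block is named, that spread includes the one between the mTERT pairs.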

Other observations

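Genes of the imprinted interval from Dlk1 to Dio3 on chromosome 12 were examined after their values were seen, so the following is a description with no test. The interval holds non-coding RNAs and a large microRNA cluster expressed from the maternal allele. Of 47 genes measured, 31 were higher and 1 lower in the knockouts of both lines and 15 had opposite signs, with a median of 0.16 (0.10 in the mTERT line and 0.19 in the mTR line). The number higher in both was 16 without mTERT WT 3 and 39 without mTERT KO 3. Meg3, the long non-coding RNA at the start of the maternal transcripts, read 10.09, 10.24 and 9.41 in mTERT KO, 9.82, 10.09 and 9.0 in mTERT WT, 9.80, 10.08 and 9.67 in mTR KO and 9.46, 9.65 and 9.10 in mTR WT. The knockout was the higher member of each mTERT pair, and the mTR groups did not overlap. The difference was 0.36 ± 0.19 (unadjusted p = 0.0826), and 0.23 without mTERT WT 3. With the mTERT pairs as a block in limma its unadjusted p was 0.00455 and its adjusted p 0.876. Such a drop was not particular to Meg3. The block also lowered the unadjusted p of Apcdd1 (0.107 to 0.00994) and Fas (0.0309 to 0.00418), and it raised that of Ndufs6 (0.000219 to 0.000465). Their adjusted p with the block was 0.876 as well. Rian differed by 0.23 and the RNA DQ267101 by 0.32.

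Of 40 microRNA genes in the interval 26 were higher and 1 lower in both lines, with a median of 0.15. Only 30 of the 40 lay above background (5.00), and of these 20 were higher and 1 lower in both, with 13 higher in both without mTERT WT 3. The probe sets report RNA containing the gene, not the processed microRNA. Neighbouring genes of such a cluster can share 1 precursor, so they are not independent. Over the array 1.69% of probe sets were higher at an unadjusted p under 0.05. The microRNA genes above background with such a p were Mir369 (0.29), Mir667 (0.22) and Mir668 (0.13), each with an adjusted p of 0.981. Mir136 reached it too (0.19), but its mean level of 4.59 lay under background. 1 mature arm of each of the 3 above background is shown from RefSeq (GRCm38.p6), 5′ to 3′, with the seed in capitals.
mmu-miR-369-3p: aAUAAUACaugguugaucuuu
mmu-miR-667-3p: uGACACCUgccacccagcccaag
mmu-miR-668-3p: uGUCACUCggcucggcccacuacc
These 3 seeds differ from each other.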
